A study of Mus musculus with 6 samples.

Results

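5 of the 923 genes in the deposited ileum RNA-seq table form 2 families of near-identical sequence: Gapdh with its copy Gm7336, and Eno1 with its copies Eno1b and Gm4735. They were taken by gene name, and their choice rested on values of this same contrast, so their differences between the groups are given as a description without a test. The experiment set the ileum of 3 Hif1α LSL/LSL;VilERcre mice against that of 3 Hif1α LSL/LSL littermates, to learn which transcripts change when HIF-1α is overexpressed in the intestinal epithelium. In the former, called overexpression mice here, a tamoxifen-inducible Cre driven by the villin promoter removes a stop cassette in front of HIF-1α in epithelial cells. The latter, called flox controls, carry the same allele without Cre and were also given tamoxifen, and both parent lines are on a C57BL/6 background. In each group, replicates 1 and 2 were male and replicate 3 was female by the sample labels, whereas the study's text calls the mice male, and the study's methods describe age-matched adult mice of these genotypes on chow, high-fructose or high-fat high-fructose feeding, without saying which diet these mice had.

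Gapdh and enolase catalyze separate steps of the later, energy-yielding part of glycolysis. Gapdh oxidizes glyceraldehyde 3-phosphate and passes the electrons to NAD+, and enolase converts 2-phosphoglycerate to phosphoenolpyruvate, the substrate of pyruvate kinase. HIF-1 is a transcription factor known for raising the transcription of glycolytic enzymes under low oxygen. Genes of this kind have left many processed copies in the mouse genome, which arise when an mRNA is reverse transcribed and inserted elsewhere, and which therefore lack the introns of the parent.

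The positions are those of the table on GRCm38. Gapdh (ENSMUSG00000057666) lies at chr6:125161715-125166467 on the minus strand, and its longest complete coding transcript in GENCODE M21 has 1420 bases in 7 exons. Gm7336 (ENSMUSG00000078636) is annotated as a processed pseudogene at chr7:51746647-51747878, with 1 exon of 1232 bases. Eno1 (ENSMUSG00000063524) lies at chr4:150236721-150248879 on the plus strand, with a longest complete coding transcript of 2027 bases in 12 exons. Eno1b (ENSMUSG00000059040), on chromosome 18, is annotated as protein coding with 2 exons in a transcript of 1791 bases. Gm4735 (ENSMUSG00000064193) is a processed pseudogene at chr2:80837141-80838442, with 1 exon of 1302 bases.

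The copies differed little from the parents. Gm7336 aligned to the Gapdh mRNA over 1230 bases with 1 substitution, and its sequence was identical to all 1002 coding bases of Gapdh, so that its frame of 333 codons is intact. Gm4735 differed from Eno1 at 5 of 1302 aligned bases, all in the coding sequence, and from Eno1b at only 3. Eno1b aligned to Eno1 over 1652 bases with 99.5% identity, and 8 of its 9 substitutions were in the coding sequence. Both enolase copies read through 434 codons, as does Eno1. Whether any copy makes protein was not measured.

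To show what the counting had to separate, a stretch of 100 coding bases is given for each parent and a single-exon copy, on the strand of the gene, with capitals at bases that differ within the pair. The Gapdh stretch is in exon 3 at chr6:125163337-125163436 (minus strand) and the Gm7336 stretch at chr7:51746720-51746819. It has no capital, because the sequences are the same, and it occurs in transcripts of 11 genes, 5 of them listed.
Gapdh: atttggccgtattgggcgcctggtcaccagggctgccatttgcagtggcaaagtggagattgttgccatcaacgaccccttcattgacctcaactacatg
Gm7336: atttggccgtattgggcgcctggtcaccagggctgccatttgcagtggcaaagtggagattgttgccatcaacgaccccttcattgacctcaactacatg
The Eno1 stretch is in exon 8 at chr4:150246619-150246718 and the Gm4735 stretch at chr2:80837857-80837956. It was chosen for holding the most differences of any such window within 1 exon, which were 2, and as printed each version occurs in transcripts of 1 gene.
Eno1: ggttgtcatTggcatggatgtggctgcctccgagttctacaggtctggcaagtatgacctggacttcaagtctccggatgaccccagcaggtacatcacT
Gm4735: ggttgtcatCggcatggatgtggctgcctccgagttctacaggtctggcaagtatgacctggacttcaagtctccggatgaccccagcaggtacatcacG

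Reads of this study were 150 bases long, so every window of 150 bases in the members' transcripts was looked up, with no mismatch allowed, in the transcripts of all other genes. In the main Gapdh transcript, 941 of 1271 windows (74.0%) occurred in at least 1 other gene, and each of these also occurred in Gm7336. The first 197 windows and the last 133 were found in Gapdh alone. Of 1083 windows of Gm7336, only 7 were its own. In the main Eno1 transcript, 920 of 1878 windows (49.0%) occurred in Eno1b or Gm4735, and in no other gene. Of the copies, Eno1b had 640 windows of its own among 1726 over its transcripts, and Gm4735 had 294 of 1153. A read pair can be assigned by its other end, so these shares are not shares of ambiguous pairs. The treatment of reads that fit several genes is not given in the sources used.

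**Figure D1:**
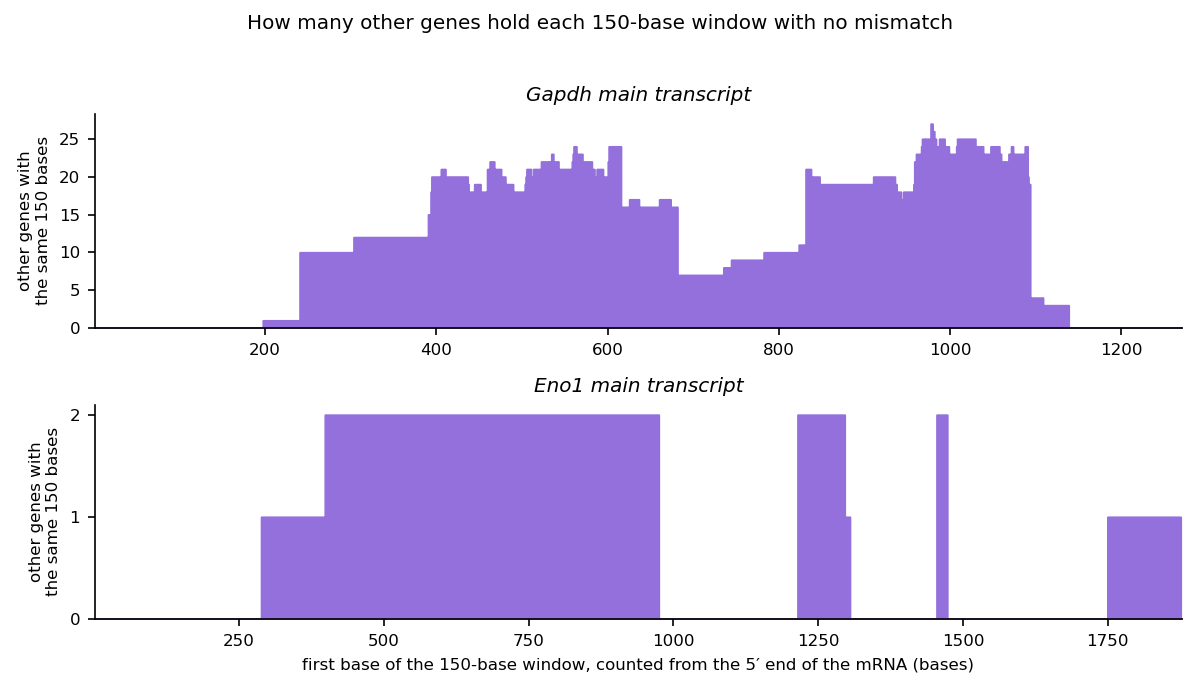
Number of other genes whose transcripts hold each 150-base window without mismatch (vertical axis) against the first base of the window from the 5′ end of the main transcript (horizontal axis), for Gapdh (top) and Eno1 (bottom). Windows of Gapdh were found in up to 27 other genes at once and those of Eno1 in up to 2, and both transcripts have ends or gaps at 0 where a window belongs to the parent alone.

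Library totals implied by the deposited FPKM ran from 18918341 to 24905343, and the deposited size factors from 0.86 to 1.14. The authors tested 19204 genes with DESeq2, a number inferred from their p-values and adjusted p-values. The table holds those with an unadjusted p under 0.05. Of these, 767 averaged 5 or more normalized counts (counts divided by the size factor) and were fitted here. All 5 members were among them. Of the defining markers fixed for the cell types of the ileum, 1 of 11 for enterocytes is listed, Fabp6, the ileal bile acid-binding protein, at 33689 to 44735 normalized counts in flox controls and 36234 to 66850 in overexpression mice. The others are not listed, so the tissue label could not be checked further. Acta1, the skeletal muscle actin and 1 of 9 muscle markers, was at 137 to 281 in flox controls and 587 to 950 in overexpression mice, and the B cell gene Ms4a1 was at 23.7 to 97.9 in flox controls and 6.99 to 19.2 in overexpression mice. Of red blood cell markers, 1 of 4 is listed, Hba-a2, at 31.1 to 125 and 14.0 to 29.9, and none of 3 T cell or 3 stroma and vessel markers is. Their part in the values below was not tested, and in whole ileum more cells of a type and more RNA per cell cannot be told apart.

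All 5 genes had higher normalized counts in every overexpression library than in any flox library, a pattern also seen in 40.9% of the 767 genes fitted. For Gapdh this depended on the scaling. Before it, the female overexpression library had 332 counts and the female flox library 376. The fold between group means ran from 1.97 for Gm7336 to 3.56 for Gapdh.

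Gapdh was at 204, 257 and 354 normalized counts in flox replicates 1, 2 and 3. In overexpression replicates 1, 2 and 3 it was at 1489, 1023 and 387. The 2 male overexpression libraries therefore stood far above all others, while the female one was only 1.09 times the highest flox library, which was the female flox library. Group means were 272 ± 75.9 (SD, n = 3) and 966 ± 553 (SD, n = 3), and edgeR gave a log2 fold change of 1.83 (standard error, SE, 0.41). Without overexpression replicate 3 the log2 fold change was 2.21, and without overexpression replicate 1 it was 1.38. In males alone, 2 against 2, it was 2.44, a fold of 5.44 between means. With 1 female per group, sex and the single mouse cannot be told apart.

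Gm7336 did not share that pattern. It was at 195, 340 and 237 normalized counts in flox replicates 1 to 3. The overexpression libraries held 598, 434 and 488, with the female library in the middle. The means were 257 ± 74.5 (SD, n = 3) and 507 ± 83.2 (SD, n = 3), a log2 fold change of 0.98 (SE 0.23). The fold was 1.93 between the means of the males and 2.06 between the females. Although 941 of the 1083 windows of Gm7336 are found in Gapdh, its level was above that of Gapdh itself in the female overexpression library and in male flox replicate 2.

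Eno1 had by far the highest counts of the members. It was at 8686, 10407 and 8225 normalized counts in flox replicates 1, 2 and 3 and at 26787, 24485 and 21209 in the overexpression replicates. Every overexpression library was at least 2.04 times the highest flox library. The log2 fold change was 1.41 (SE 0.16), with a fold of 2.69 in males and 2.58 in females.

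Eno1b, which retains an open frame for an enolase, was at 72.0, 148 and 128 normalized counts in flox replicates 1, 2 and 3. It was at 304, 432 and 402 in the overexpression replicates. The lowest library of either group was replicate 1, a male, and the groups were apart by 2.05 times. Means were 116 ± 39.6 (SD, n = 3) and 379 ± 67.0 (SD, n = 3), a log2 fold change of 1.70 (SE 0.29). Gm4735 was at 88.7, 119 and 105 in flox replicates and at 280, 232 and 221 in overexpression replicates 1, 2 and 3. Its log2 fold change was 1.22 (SE 0.24), the groups being apart by 1.85 times.

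**Figure D2:**
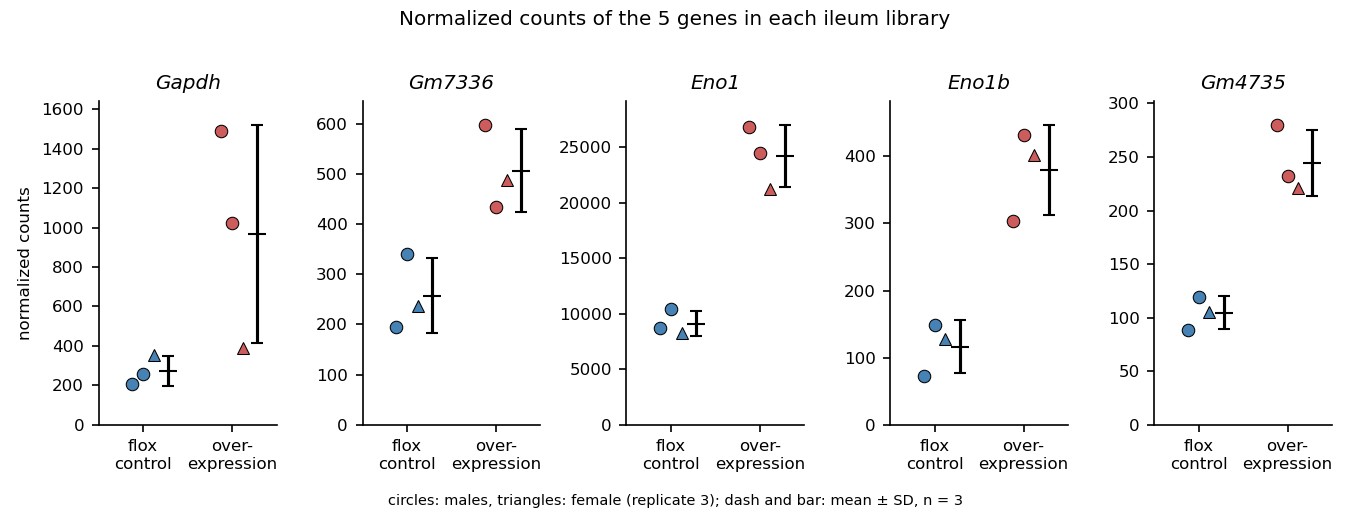
Normalized counts (vertical axes, each from 0) of Gapdh, Gm7336, Eno1, Eno1b and Gm4735 in flox control and overexpression ileum, with 1 point per library (circles for males, triangles for females) and the mean ± SD of 3 beside them. Every overexpression point is above every flox point, but for Gapdh the female overexpression library, at 387, lies next to the female flox library at 354.

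The counts of each family were then added within a library, so that a read counted for one member or another does not change the sum. Windows of Gapdh occur in 49 other genes, of which 4 are listed, and reads counted for genes other than Gapdh and Gm7336 stay outside this sum. So would any reads left uncounted because they fit both, and the treatment of such reads is not given. The sums are therefore sums of assigned reads. The Gapdh family sum was 399, 597 and 591 normalized counts in flox replicates 1, 2 and 3. In overexpression replicates 1, 2 and 3 it was 2086, 1457 and 875. The sum was thus higher in each overexpression library than in any flox library, by at least 1.47 times. Its means were 529 ± 113 (SD, n = 3) and 1473 ± 606 (SD, n = 3), a log2 ratio of 1.48 (SE 0.41) or 2.78-fold. Between females the ratio was 1.48-fold and between the means of males 3.55-fold.

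The enolase family sum was 8847, 10675 and 8458 normalized counts in flox replicates 1, 2 and 3. It was 27370, 25150 and 21832 in the overexpression replicates. Here too the groups did not overlap, and the lowest overexpression library was 2.05 times the highest flox library. The log2 ratio of the means was 1.41 (SE 0.14), or 2.66-fold, with 2.69-fold in males and 2.58-fold in females. Since Eno1 made up nearly all of this sum, adding the copies left the fold of Eno1 alone (2.65) almost as it was, whereas the Gapdh family rose by a smaller fold than Gapdh (3.56) and a larger one than Gm7336 (1.97).

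**Figure D3:**
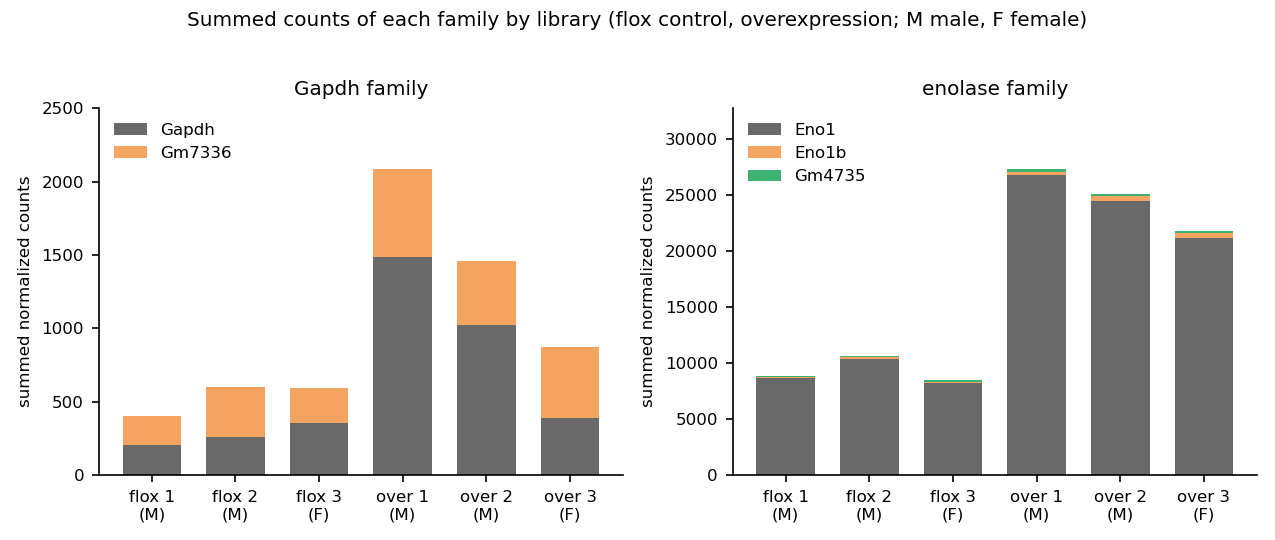
Summed normalized counts (vertical axis) of the Gapdh family (left) and the enolase family (right) in each library, stacked by gene, with sex below each bar. Gm7336 makes up 28.6% to 56.9% of the Gapdh family bars, more than Gapdh in male flox replicate 2 and in the female overexpression library, while Eno1 fills nearly the whole of each enolase bar.

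The ratio of counts of a copy to those of its parent within a library does not depend on the scaling between libraries. For every 100 counts of Gapdh, Gm7336 had 95.7, 132 and 67.0 in flox replicates 1, 2 and 3, from 207 to 376 Gapdh counts. In overexpression replicates it had 40.1, 42.5 and 126. The 2 male overexpression libraries were thus below every other library, and the female one was within the flox range. As a share of the Gapdh family, Gm7336 made up 28.6% (exact binomial 95% interval 26.8 to 30.6) and 29.8% (27.4 to 32.3) of the counts in the 2 males but 55.8% (52.2 to 59.4) in the female. These intervals cover counting error only. The mean ratio was 98.3 ± 32.6 (SD, n = 3) in flox controls and 69.6 ± 49.0 (SD, n = 3) in overexpression mice, a log2 ratio of -0.50, with overlapping groups. It was -1.25 without overexpression replicate 3 and nearer 0 without overexpression replicate 1 (-0.22), overexpression replicate 2 (-0.24) or flox replicate 2 (-0.22).

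Ratios within the enolase family were low and overlapped between the groups. Per 100 counts of Eno1, Eno1b had 0.83, 1.43 and 1.56 in flox replicates 1, 2 and 3. It had 1.13, 1.76 and 1.90 in overexpression replicates 1, 2 and 3, so that replicate 1 was lowest in both groups. Gm4735 had 1.02, 1.15 and 1.28 in flox replicates and 1.04, 0.95 and 1.04 in overexpression replicates. It kept the narrowest ratio to its parent, with 1.35 times between the lowest and the highest of 6 libraries, against 2.29 times for Eno1b and 3.29 times for Gm7336.

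**Figure D4:**
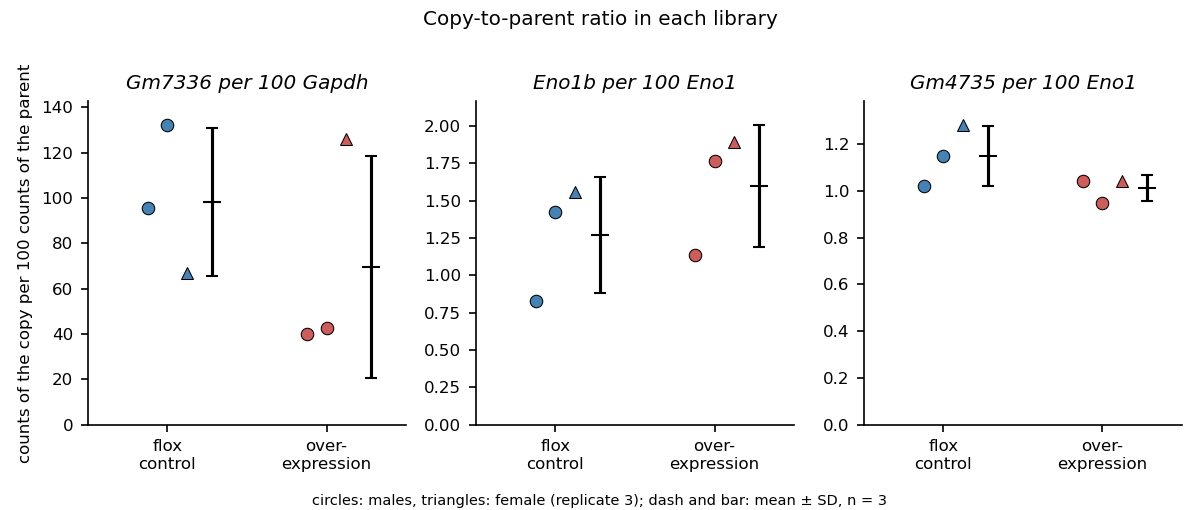
Counts of each copy per 100 counts of its parent (vertical axes, each from 0) in flox control and overexpression libraries, with circles for males, triangles for females and mean ± SD of 3. Gm7336 is near 40 per 100 Gapdh counts in the 2 male overexpression libraries and at 126 in the female, and both enolase copies stay between 0.83 and 1.90 per 100 Eno1 counts.

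After each group's mean was subtracted, log2 counts of Gm4735 followed those of Eno1 with Pearson's r = 0.77 over the 6 libraries, those of Gm7336 followed Gapdh with r = 0.27, and those of Eno1b followed Eno1 with r = 0.11. Across the families r was 0.70 for Gm7336 with Eno1 and 0.56 for Gapdh with Eno1, so these values do not set a copy and its parent apart from other pairs. Libraries share their depth in each such pair, and the values are a description. Among 569 listed genes averaging 50 or more normalized counts, the 3 whose deviations were most like those of Gapdh were Lpcat4, a lysophospholipid acyltransferase (r = 0.99), the methyltransferase Inmt (r = 0.98) and Oaf (r = 0.98). Lpcat4 had 2484 and 2192 normalized counts in the 2 male overexpression libraries and 1659 in the female, against 1535 to 1786 in flox controls. Inmt was lower in the overexpression libraries, at 62.7, 42.6 and 24.5 in replicates 1, 2 and 3. For Eno1 they were Atp5e, a subunit of ATP synthase (r = 1.00), Ier5 (r = 0.99) and Tmsb10, an actin-binding thymosin (r = 0.99). These genes were picked for the highest r among 569 over only 6 libraries, so a high r carries no weight as a test.

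4 further listed genes are copies of Gapdh by name or sequence and lie outside the 5. Gm12070 on chromosome 11, Gm13394 on chromosome 2 and Gm5559 on chromosome 5 each share at least 701 windows of 150 bases with Gapdh. Each had higher normalized counts in every overexpression library than in any flox library, as did 40.9% of the 767 genes fitted. The fold between means of Gm12070, Gm13394 and Gm5559 was 2.13, 2.04 and 1.91, and between the females it was 1.53, 1.81 and 1.87. Relative to Gm7336, their counts varied by 1.30 to 1.55 times between the lowest and the highest library. Relative to Gapdh they varied by 2.93 to 3.45 times, while Gapdh itself ran from 207 to 1592 counts. For Gm12070, r of the deviations from group means was 0.71 with Gapdh and 0.67 with Gm7336. It was 0.63 and 0.88 for Gm13394, and 0.43 and 0.88 for Gm5559. Gapdh-ps14 on chromosome 8 had 0 counts in each flox library and 18, 2 and 0 in overexpression replicates 1, 2 and 3. With these 4 copies added, the Gapdh family sum went from 747 ± 153 (SD, n = 3) to 1912 ± 664 (SD, n = 3), or 2.56-fold.

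FPKM, which also divides by gene length, put Gapdh low among glycolytic genes. Mean FPKM of Gapdh was 2.99 ± 0.85 (SD, n = 3) in flox controls and 10.5 ± 6.02 (SD, n = 3) in overexpression mice. This was rank 16 and rank 14 of 17 genes, namely the 5 members and the other 12 listed glycolysis genes. Gm7336, at 9.51 ± 2.81 and 18.6 ± 3.02 FPKM (SD, n = 3), was above Gapdh by this measure in all 6 libraries, with 135 to 443 per 100 of Gapdh. Eno1 was at 77.0 ± 10.0 and 203 ± 22.9 FPKM (SD, n = 3). The length used for Gapdh was 4133 bases, the union of its exons, against 1420 bases in the main transcript, and 5379 against 2027 for Eno1, while for Gm7336 it was the 1232 bases of its only transcript. Levels per length of the parents are therefore lowered relative to their copies. In the main transcripts, 74.0% of Gapdh windows and 49.0% of Eno1 windows occurred in other genes. How far the treatment of reads that fit several genes lowered the counts of Gapdh was not tested, so its rank is one of assigned reads. Gapdh exons also share 68 bases with Iffo1 on the other strand, and the sources used do not say whether strand was used in counting.

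**Figure D5:**
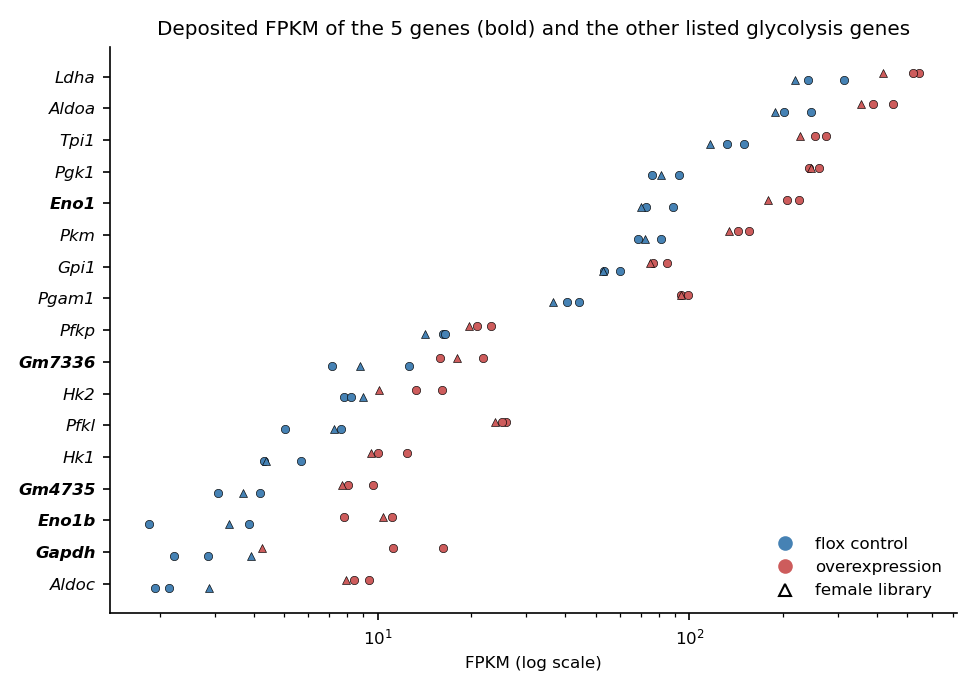
Deposited FPKM (horizontal log axis) of the 5 members (bold) and the other 12 listed glycolysis genes, 1 point per library (triangles for females), ordered by mean in flox controls. Gapdh is near the bottom, with its female overexpression library at 4.25 FPKM beside the flox libraries, whereas Eno1 is at rank 5 in both groups.

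The rest of the pathway gives the context of these values. Of 29 glycolysis genes, 14 are listed, Gapdh and Eno1 among them, and 15, such as Eno2, Eno3 and Gapdhs, are not listed and were not analysed here. All 12 listed genes other than the members had higher normalized counts in overexpression mice with groups that did not overlap, as did 40.9% of the 767 genes fitted. Before scaling, the groups overlapped for Hk2, Gpi1 and Pfkp. These had 1141, 9109 and 4991 counts in overexpression replicate 3 and up to 1247, 9652 and 5507 in flox controls. Of the 12, 6 passed edgeR's quasi-likelihood test (adjusted p under 0.05, Benjamini-Hochberg over 19204 genes), as did 2.74% of the 767 genes fitted in this direction. Without overexpression replicate 1 only 2 of these 12 passed, and without overexpression replicate 2 only 3. Their median log2 fold change was 0.96, beside 0.34 for all genes fitted, and since the table was selected by p in these libraries this carries no weight as a test. The adjusted p-values rest on a fit to these selected genes only and take every gene not listed to have a larger p. They are therefore given as a description. Pfkl, the liver-type phosphofructokinase that commits sugar to glycolysis, had a log2 fold change of 1.92 (SE 0.17, adjusted p = 0.00228), and the aldolase Aldoc one of 1.90 (SE 0.20, adjusted p = 0.00594). Pgk1, the kinase directly after Gapdh, had 1.60 (SE 0.14, adjusted p = 0.00221), and Pgam1, the mutase directly before enolase, 1.25 (SE 0.13, adjusted p = 0.00594). Hexokinase 1 (Hk1) and pyruvate kinase (Pkm) also passed, at 1.17 and 0.98. Ldha, Tpi1, Aldoa, Hk2, Gpi1 and Pfkp did not, with log2 fold changes from 0.45 for Pfkp to 0.95 for Ldha. Hk2 also had a small fold between the females (1.13, against 1.85 in males), while Pgk1 had 3.06 in females and 3.00 in males. Copies of other glycolytic genes are listed as well, and Pgk1-rs7 and Pgam1-ps2 had 2.95-fold and 3.32-fold higher means in overexpression mice. These rest on few flox counts, 18 to 25 for Pgk1-rs7 and 5 to 22 for Pgam1-ps2. Their log2 fold changes were 1.56 (SE 0.43) and 1.72 (SE 0.62), and that of Tpi-rs11 was 1.18 (SE 0.39).

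Sequence upstream of the parents is shown because their counts were higher together, with the core letters of the HIF response element, ACGTG or GCGTG on either strand, in capitals. RefSeq promoter entries were found for 2 of 5 members, Gapdh and Eno1. The 250 bases before the RefSeq start of Gapdh, chr6:125165774-125166023 (minus strand, GRCm38.p6), held 2 matches, both GCGTG or its reverse complement. The first of 3 entries of Eno1, chr4:150236458-150236707 (plus strand), held 1, and the other 2, which overlap exons of Eno1 and are not printed, held 2 each. Of 32851 promoter windows of this length, 38.6% held at least 1, so a match is frequent by itself. It is a description and says nothing of binding, which was not measured.
Gapdh upstream: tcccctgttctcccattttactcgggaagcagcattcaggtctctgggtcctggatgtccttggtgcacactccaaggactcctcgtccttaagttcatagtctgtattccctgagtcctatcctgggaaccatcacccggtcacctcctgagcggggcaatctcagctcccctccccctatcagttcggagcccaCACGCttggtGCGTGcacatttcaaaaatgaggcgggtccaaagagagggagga
Eno1 upstream: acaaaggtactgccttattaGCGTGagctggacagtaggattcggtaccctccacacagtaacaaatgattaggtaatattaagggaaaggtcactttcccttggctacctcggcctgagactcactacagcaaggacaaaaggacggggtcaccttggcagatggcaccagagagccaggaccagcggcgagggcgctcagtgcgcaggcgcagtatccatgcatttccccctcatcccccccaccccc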

How the data were processed

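RNA-seq of 6 ileum libraries was used. The authors aligned polyadenylated paired reads to GRCm38 with HISAT2 (version 2.0.5) and deposited whole-number counts per gene from featureCounts, a normalized signal (counts divided by a size factor, here called normalized counts) and FPKM by gene length and library total. The log2 fold changes and group means deposited with them are the authors' own results and were not used. The authors' p-values showed that the table holds genes with p under 0.05. Together with their adjusted p-values they served to infer the number of genes tested, 19204, over which p was adjusted here. Members and lists were chosen with earlier results of these data known. Genes named are the 5 members, listed glycolysis genes and, for Gapdh and Eno1, the 3 genes with the most similar deviations. Others, such as further copies and the markers, were named after their values were seen or from the marker lists. Counts were fitted with edgeR 4.0.16 in R 4.3.3 for the 767 genes, scaled by deposited size factors, without covariates, a step tested on simulated data. The SE of a gene's log2 fold change was its size divided by the square root of edgeR's F statistic. For family sums the log2 ratio is that of the group means, whereas its SE comes from the spread of log2 values within groups. Windows, alignments and exon overlaps came from GENCODE M21, and promoters from RefSeq. Nothing states separate litters or batches. With 3 mice per group, an exact permutation p cannot fall below 0.1. Alternatives were other scalings, FPKM, DESeq2 1.42.0, no filter on low counts, sex, a replicate block, males only, each library left out and, for copy-to-parent ratios, the ratio of summed counts. 1 listed marker gene is not reported here.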

Additional observations from a re-analysis of the deposited data

How the results depend on the processing

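The log2 fold changes of all 5 genes and both family sums kept their direction under every alternative run. Each moved by less than its SD within groups, the Gapdh family sum from 1.14 to 1.74 and the enolase family sum from 1.33 to 1.52 when 1 library was left out. TMM over the listed genes moved the median of all genes by -0.14, and the median of the members to 1.26 from 1.41. The log2 ratio of Gm7336 per Gapdh stayed below 0 but varied in size. It was -1.46 in males only, -0.91 as a ratio of summed counts and -1.25 to -0.22 with 1 library left out. That of Gm4735 per Eno1 also stayed below 0, and that of Eno1b per Eno1 stayed above it. The share of all members' windows found in other genes was 33.1% over all transcripts with 150 bases, 38.5% with 100 bases, 22.8% with 300 bases and 68.3% in the main transcript only, an alternative added after seeing the data, as were the Gapdh family sums with further copies (1.48 and 1.36). Calls among listed genes numbered 22 in edgeR, 39 with the replicate block, 73 in DESeq2, 1 in males only and 4 to 13 with 1 library left out. Of the 12 listed glycolysis genes other than the members, 6 passed in edgeR, 10 in DESeq2, 0 in edgeR with males only (all 12 at an unadjusted p under 0.05) and 2 to 5 with 1 library left out. The replicate numbers were not taken as pairs, since deviations of libraries with the same number correlated only weakly, at 0.06, 0.04 and 0.09. These values were still above those of libraries with different numbers, which ran from -0.08 to 0.01. Under the block the log2 fold change of Gapdh was 1.68. The depth of the Gapdh family, 405 to 2231 counts, limits its shares, and the fits rest on genes selected by p in the same libraries, so that fold changes lean high.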
